A study of Homo sapiens with 36 samples.

Results

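The genes described here are 44 genes of the endoplasmic reticulum (ER) stress response and of the response driven by the transcription factor ATF4. They were chosen by symbol, through the GENCODE v44 names of the Ensembl identifiers in the deposited table, from 29872 genes. An ER branch of 25 genes comprised 11 chaperones and co-factors of the ER lumen, 3 disulfide isomerases, 4 genes of ER-associated degradation (ERAD), 4 stress sensors or factors, and 3 genes of translocation and vesicle transport. An ATF4 branch of 19 genes comprised 7 factors and feedback genes, 8 enzymes of amino acid and one-carbon synthesis, and 4 transporters or receptors. All 44 were found, and all 44 passed the filter on low values at both time points.

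RNA was sequenced from LNCaP cells, an established line of human prostate cancer with luminal features. Cells received vehicle, AU2-94 at 1 or 2 µM, atirmociclib at 1 or 2 µM, or ribociclib at 2 µM, for 24 h or 72 h, with 3 biological replicates in each of the 12 groups (36 libraries). AU2-94 and atirmociclib are selective inhibitors of the cell-cycle kinase CDK4, and ribociclib inhibits CDK4 and CDK6. In the study's kinase assays atirmociclib also inhibited CDK6, CDK9, CDK2 and CDK1, each more strongly than AU2-94 did. The labels also list 2 µM for the vehicle groups. Wells for the later harvest were seeded at a lower density, so time and density cannot be told apart. All groups share 1 cell line, and the p-values measure the spread between these libraries.

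Unfolded protein in the ER lumen is sensed by IRE1 (encoded by ERN1), PERK (EIF2AK3) and ATF6, which together raise chaperones, disulfide isomerases, translocation genes and the ERAD machinery. PERK and other kinases, including one that responds to a lack of amino acids, also phosphorylate the translation factor eIF2, which favours translation of ATF4, and ATF4 raises genes for amino acid uptake and synthesis and, under stress, DDIT3 (CHOP), TRIB3 and CHAC1. IRE1 acts by splicing XBP1 mRNA, and ATF4 is set largely by translation, and gene-level values measure neither step.

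Values are the authors' normalised counts, which summed to 20675156 to 22692555 per library. Differences are on the log2(normalised count + 1) scale, with a standard error (SE) from limma over the 6 groups of a time point (n = 3 each), and a gene passed at an adjusted p of at most 0.05 (Benjamini-Hochberg over all genes tested). The luminal marker KLK3 was abundant in every library, and higher in treated libraries without overlap. It was 22731 to 24802 in vehicle and 27660 to 32870 in treated libraries at 24 h. At 72 h it was 19802 to 20972 and 42554 to 55194. KRT5, TP63, PTPRC, COL1A2 and PECAM1 did not exceed 7.09 in any library, and each was at 0 in most libraries. The other 4 of 9 markers of other cell types were present. ACTA2 was 50.9 to 80.0 in vehicle and 92.1 to 190 in treated libraries at 24 h, without overlap, and 23.3 to 36.2 and 26.6 to 86.1 at 72 h. CD68 was 60.8 to 144 and 34.9 to 74.1 at 24 h, then 42.8 to 90.4 and 57.0 to 139. COL1A1 was 389 to 512 and 194 to 405, then 485 to 642 and 496 to 644, and VWF was 257 to 393 and 216 to 468, then 184 to 252 and 242 to 713. The 9 summed to 817 to 1009 in vehicle and 678 to 1078 in treated libraries at 24 h. Their part in the results was not tested. In such bulk samples fewer cells of a kind and less RNA per cell cannot be told apart.

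Promoter sequences are given first, since both branches are known for elements near the start. In the RefSeq promoter table (GRCh38.p14, 250 bases before to 50 after a gene's start), 39 of the 44 genes were matched by symbol, and PDIA3, PYCR1, SHMT2, SLC7A11 and PSPH were not. On either strand, the ER stress element, CCAAT then 9 bases of any kind then CCACG, lay in the windows of 7 of 24 ER branch genes (HSPA5, HSP90B1, CALR, CANX, PDIA6, CRELD2 and XBP1) and 0 of 15 ATF4 branch genes, against 0.0916% of 27305 genes in the table. ER stress element II, ATTGG, any base, then CCACG, lay in those of SDF2L1, HYOU1 and HERPUD1, against 0.0696% of genes. The C/EBP-ATF response element, TGATG, any base, then AA, lay in those of 4 ATF4 branch genes (ASNS, CHAC1, CEBPG and SLC3A2) and of HERPUD1, against 4.46% of genes. A match to these letters is a description, not a site shown to be bound.

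The 250 bases before the start are shown, 5′ to 3′ on the gene's strand, for 8 genes whose values are given below, with every match in capitals. Their positions in GRCh38.p14, with the strand, are HSPA5 chr9:125241344-125241593 (minus), HSP90B1 chr12:103930160-103930409 (plus), CALR chr19:12938359-12938608 (plus), HYOU1 chr11:119057206-119057455 (minus), HERPUD1 chr16:56931892-56932141 (plus), ASNS chr7:97872409-97872658 (minus), CHAC1 chr15:40953221-40953470 (plus), CEBPG chr19:33373863-33374112 (plus). HERPUD1 carries both an ER stress element II and a C/EBP-ATF element, the latter farther from the start.
HSPA5: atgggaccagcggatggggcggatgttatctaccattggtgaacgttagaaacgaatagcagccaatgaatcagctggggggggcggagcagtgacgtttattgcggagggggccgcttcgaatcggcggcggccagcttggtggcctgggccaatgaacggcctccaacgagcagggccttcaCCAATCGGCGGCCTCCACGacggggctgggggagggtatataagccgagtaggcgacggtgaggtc
HSP90B1: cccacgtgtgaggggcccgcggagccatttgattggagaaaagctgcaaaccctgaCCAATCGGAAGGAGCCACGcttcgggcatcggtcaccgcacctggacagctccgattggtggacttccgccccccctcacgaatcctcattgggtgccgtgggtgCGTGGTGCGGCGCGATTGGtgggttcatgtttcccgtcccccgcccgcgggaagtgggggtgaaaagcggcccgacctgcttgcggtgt
CALR: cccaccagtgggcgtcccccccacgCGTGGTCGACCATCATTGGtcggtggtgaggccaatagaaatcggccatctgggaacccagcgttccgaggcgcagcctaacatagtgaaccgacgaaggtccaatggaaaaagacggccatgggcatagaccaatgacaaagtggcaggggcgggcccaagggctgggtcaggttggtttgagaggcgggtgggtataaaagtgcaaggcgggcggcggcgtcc
HYOU1: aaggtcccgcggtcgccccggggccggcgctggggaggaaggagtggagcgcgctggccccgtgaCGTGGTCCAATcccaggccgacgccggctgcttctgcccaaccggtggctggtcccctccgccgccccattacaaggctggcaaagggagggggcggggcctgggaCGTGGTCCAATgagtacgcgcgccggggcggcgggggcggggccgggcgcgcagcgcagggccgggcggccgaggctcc
HERPUD1: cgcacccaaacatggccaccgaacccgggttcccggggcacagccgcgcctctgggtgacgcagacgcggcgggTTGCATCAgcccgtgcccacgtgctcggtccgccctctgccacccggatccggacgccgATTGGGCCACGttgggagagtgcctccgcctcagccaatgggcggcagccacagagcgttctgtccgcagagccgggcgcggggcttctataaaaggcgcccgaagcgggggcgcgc
ASNS: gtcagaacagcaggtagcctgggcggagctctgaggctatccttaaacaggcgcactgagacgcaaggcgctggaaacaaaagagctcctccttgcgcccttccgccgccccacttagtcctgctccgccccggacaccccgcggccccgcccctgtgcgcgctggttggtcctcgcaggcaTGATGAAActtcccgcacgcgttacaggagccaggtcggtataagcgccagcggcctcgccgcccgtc
CHAC1: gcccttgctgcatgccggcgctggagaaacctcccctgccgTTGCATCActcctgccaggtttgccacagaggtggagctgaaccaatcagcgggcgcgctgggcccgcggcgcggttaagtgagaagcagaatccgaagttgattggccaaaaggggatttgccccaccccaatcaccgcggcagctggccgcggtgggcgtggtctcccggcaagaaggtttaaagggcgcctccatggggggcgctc
CEBPG: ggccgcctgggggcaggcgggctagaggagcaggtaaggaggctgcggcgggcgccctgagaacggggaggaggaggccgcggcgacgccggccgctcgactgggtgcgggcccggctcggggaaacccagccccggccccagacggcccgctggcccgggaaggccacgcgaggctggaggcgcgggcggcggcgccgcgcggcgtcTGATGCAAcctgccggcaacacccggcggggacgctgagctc

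Per kilobase of the Ensembl canonical transcript, vehicle levels at 24 h were highest for CALR (12526 ± 373 normalised counts per kb, SD, n = 3), HSP90B1 (6665 ± 174) and ATF4 (4449 ± 56.9). HSPA5 (3202 ± 83.9) and PHGDH (3202 ± 176) followed and differed by less than their SD. The lowest were VLDLR (23.4 ± 0.556) and PPP1R15A (45.1 ± 8.02). Their vehicle means were 216 and 106 normalised counts over 9213 and 2350 bases, so their order rests on the transcript chosen.

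HSPA5 encodes BiP, the main Hsp70 chaperone of the ER lumen, and its promoter holds an ER stress element close to the start. At 24 h its normalised counts were 12737, 12756 and 12177 in vehicle, 14615, 14244 and 15546 with AU2-94 1 µM, 13994, 14757 and 15634 with AU2-94 2 µM, 14003, 14172 and 14436 with atirmociclib 1 µM, 14496, 14747 and 14569 with atirmociclib 2 µM, and 15735, 15754 and 16785 with ribociclib. All 15 treated libraries lay above every vehicle library. HSPA5 was higher by 0.18 to 0.36 (SE 0.04, limma adjusted p from 2.62e-06 to 0.00289), least with atirmociclib 1 µM and most with ribociclib. The rise depended on the scaling: after quantile normalisation it passed with ribociclib alone (0.12), AU2-94 gave 0.03 and 0.02, and atirmociclib turned to −0.03 and −0.01.

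At 72 h the same gene separated the agents. HSPA5 counts were 12899, 13708 and 12987 in vehicle, 14904, 15130 and 14725 with AU2-94 1 µM, 14669, 14902 and 15176 with AU2-94 2 µM, 18579, 18115 and 18679 with atirmociclib 1 µM, 20054, 20307 and 20327 with atirmociclib 2 µM, and 17329, 16312 and 17398 with ribociclib. No treated library overlapped vehicle, and both atirmociclib groups lay above all AU2-94 and ribociclib libraries. The log2 difference from vehicle was 0.18 for each AU2-94 dose, 0.48 and 0.62 for atirmociclib 1 and 2 µM, and 0.37 for ribociclib (SE 0.03). In the same libraries the summed level of the 9 markers was 767 to 973 in vehicle and 909 to 1153 with ribociclib. The sum was 983 to 1027 and 1155 to 1295 with AU2-94 1 and 2 µM. With atirmociclib 1 and 2 µM it was 1464 to 1518 and 1209 to 1341. Of these markers VWF, an endothelial gene, was 184 to 252 in vehicle and 242 to 448 with ribociclib. With AU2-94 1 and 2 µM VWF was 255 to 415 and 465 to 621. With atirmociclib 1 and 2 µM it was 658 to 713 and 519 to 582. PECAM1, also endothelial, did not exceed 4.34 at 72 h. COL1A1 was 485 to 642 in vehicle and 496 to 644 in treated libraries. The part of the 9 markers in the HSPA5 differences was not tested.

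Across the ER branch, no gene fell at 24 h and 14 of 25 rose in all 5 treatments, where 9.2% of all genes rose in all 5. With AU2-94 1 µM 14 of 25 rose (median log2 difference 0.23), with AU2-94 2 µM 15 (0.23), with atirmociclib 1 µM 18 (0.23), with atirmociclib 2 µM 18 (0.26) and with ribociclib 16 (0.30). Over all 16137 genes tested, 14.3%, 16%, 16.6%, 18.6% and 16.8% were higher and 13.5%, 14.9%, 15.4%, 16.2% and 15.2% lower in these comparisons, which share the same 3 vehicle libraries, and the median of all genes was between −0.01 and 0.01 at both times. The ER branch medians were smaller after quantile normalisation (0.13 to 0.18). DNAJB11, SEL1L, SYVN1, XBP1, ATF6 and SEC31A passed in no treatment at 24 h.

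At 72 h 10 of 25 ER branch genes rose and 2 fell with AU2-94 1 µM (median 0.12), 11 and 2 with AU2-94 2 µM (0.14), 16 and 1 with atirmociclib 1 µM (0.21), 18 and 1 with atirmociclib 2 µM (0.31) and 11 and 1 with ribociclib (0.20). Over 16341 genes 15.4%, 14.2%, 20%, 20.9% and 15.5% were higher and 17%, 15.3%, 19.8%, 19.6% and 15.4% lower. After quantile normalisation AU2-94 gave 11 higher and 0 lower at 1 µM and 13 and 0 at 2 µM, and with the replicate number as a block AU2-94 2 µM had 1 lower gene. In all 5 treatments 9 of 25 rose and 0 fell, against 8.54% of all genes for rises. No ER branch gene passed with a change of 1 log2 unit or more at either time.

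**Figure D1:**
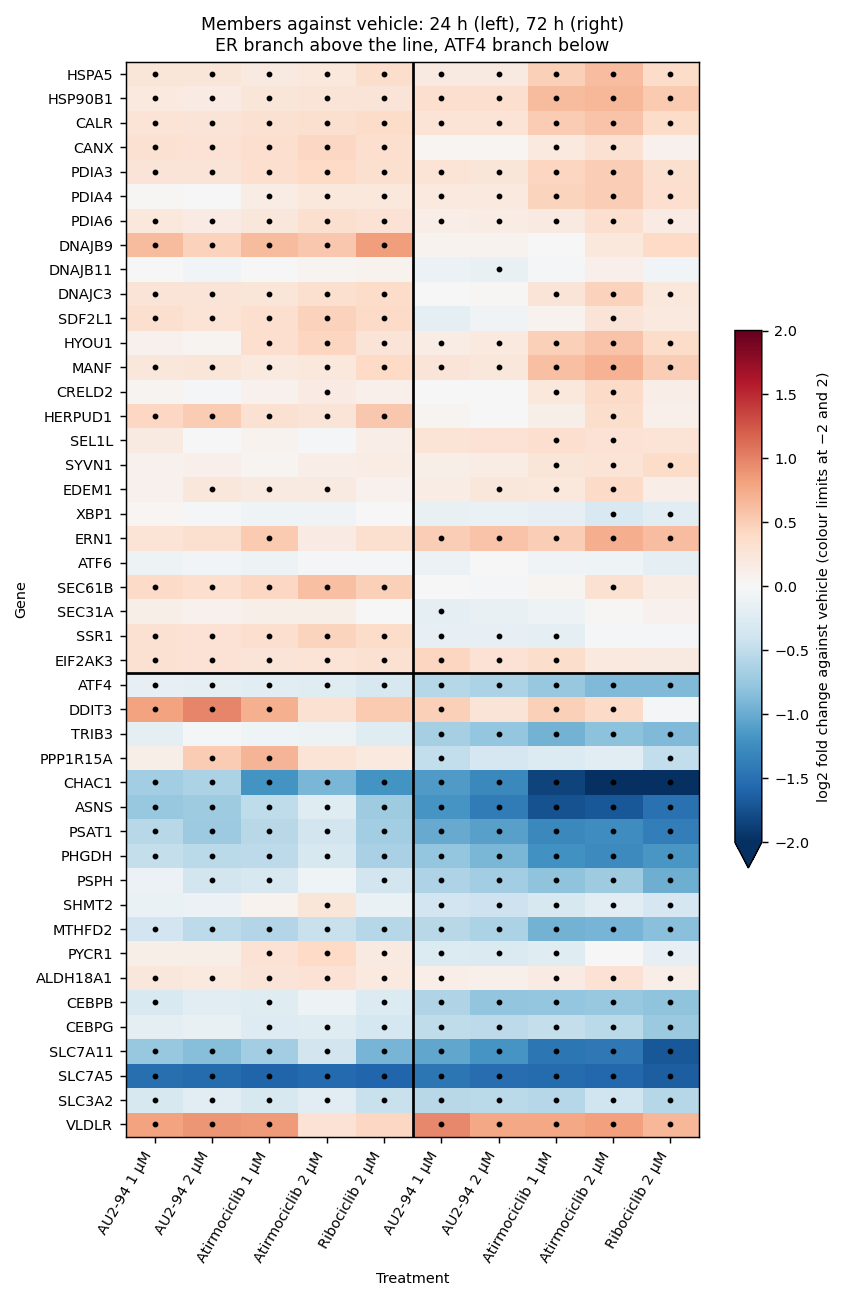
Log2 difference from vehicle of the 44 genes (rows) in the 10 comparisons (columns, 24 h left and 72 h right), in red where higher and blue where lower, with a dot where the adjusted p was at most 0.05. The ER branch is mostly red at 24 h, with 14 genes dotted in all 5 treatments, and the ATF4 branch is mostly blue at 72 h, with 14 genes lower in all 5.

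Among the lumenal chaperones, HSP90B1 (GRP94, the ER Hsp90) had 18985, 18619 and 18023 in vehicle at 24 h and 20548 to 22999 over the treated libraries. At 72 h it had 18539, 18740 and 18436 against 22773 to 30573. It rose by 0.17 to 0.26 and later by 0.34 to 0.66, and after quantile normalisation the 24 h rise passed with ribociclib alone. CALR (calreticulin, a calcium-binding lectin chaperone) rose by 0.26 to 0.36 at 24 h and 0.27 to 0.57 at 72 h. MANF, a secreted ER stress-inducible factor, rose by 0.19 to 0.40 and then by 0.23 to 0.69. In all 3 genes every treated library exceeded every vehicle library at both times. The smaller MANF rises depended on the scaling and on single libraries. With equal totals both atirmociclib calls at 24 h were lost (0.14 at each dose, adjusted p 0.0647 and 0.0526). Without single libraries the call was lost with atirmociclib 1 µM at 24 h without its replicate 3 or vehicle replicate 1 (adjusted p 0.0614 to 0.0771) and with AU2-94 2 µM at 72 h without its replicate 1 or vehicle replicate 2 or 3 (0.0618 to 0.0759).

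Other chaperones passed at 24 h and not, or in fewer treatments, at 72 h. DNAJB9 (ERdj4, a BiP co-chaperone) was 305, 291 and 292 in vehicle and 359 to 561 in treated libraries at 24 h, a rise of 0.46 to 0.83, and at 72 h its differences of −0.00 to 0.40 (SE 0.19) did not pass. Without vehicle replicate 3 ribociclib passed there (0.58, adjusted p 0.0332). SDF2L1, a component of ER chaperone complexes, rose by 0.28 to 0.46 at 24 h, where the AU2-94 2 µM call was lost without any of 5 libraries, all but its replicate 1 (adjusted p 0.0513 to 0.141). The same call was lost when only the groups compared were fitted (0.112). At 72 h SDF2L1 passed with atirmociclib 2 µM alone (0.26), a call lost without treated replicate 1 or 3 or vehicle replicate 3 (0.0602 to 0.0808) and with equal totals (0.0896). With ribociclib SDF2L1 passed there after quantile normalisation (0.24, adjusted p 0.042) and without ribociclib replicate 1 (0.26, 0.0455). CANX (calnexin, a membrane lectin chaperone) rose by 0.29 to 0.41 at 24 h and at 72 h passed with atirmociclib (0.19 and 0.30). DNAJC3 (P58IPK), a further BiP co-chaperone, rose by 0.25 to 0.37 and at 72 h passed with atirmociclib (0.26 and 0.45) and ribociclib (0.21).

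HYOU1, CRELD2 and DNAJB11 differed from that pattern. HYOU1 (ORP150, a nucleotide exchange factor for BiP) gave 0.08 and 0.05 with AU2-94 at 24 h, which did not pass, and rose by 0.26 to 0.43 with the other treatments and by 0.16 to 0.57 with all 5 at 72 h. The AU2-94 1 µM call at 72 h was lost without its replicate 3 (adjusted p 0.0507), and the ribociclib call at 24 h after quantile normalisation (0.0621). CRELD2, a secreted ER protein, passed with atirmociclib alone, at 2 µM at 24 h (0.16, limma adjusted p 0.0487) and at both doses at 72 h (0.20 and 0.38). DNAJB11, another BiP co-chaperone, passed once, lower with AU2-94 2 µM at 72 h (−0.15, limma adjusted p 0.046). That call lay near the threshold and was lost with the replicate block, quantile normalisation, median ratio scaling and equal totals. It was also lost without the filter and when only the groups compared were fitted.

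The disulfide isomerases, which form and shuffle disulfide bonds, were higher at both times. PDIA3 and PDIA6 passed in all 10 comparisons, PDIA3 by 0.25 to 0.50 and PDIA6 by 0.13 to 0.33. PDIA4 passed with atirmociclib and ribociclib at 24 h (0.14 to 0.22) and with all 5 at 72 h (0.20 to 0.49). PDIA3 is 98% identical to the pseudogene PDIA3P1 over 1514 bases, and 25.2% of PDIA6 exon bases overlap ATP6V1C2 on the other strand, which had group means of 6.99 to 24.7 normalised counts. The strand setting of the authors' counting is not given in the sources used here.

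Of the ERAD genes, HERPUD1 (a membrane protein of the degradation complex) was higher mainly at 24 h. Its counts were 1622, 1640 and 1614 in vehicle and 1883 to 2416 in treated libraries at 24 h, a rise of 0.26 to 0.54, and at 72 h it passed with atirmociclib 2 µM alone (0.35). SEL1L and SYVN1, the adaptor and ubiquitin ligase of the same complex, passed in no treatment at 24 h. At 72 h SEL1L passed with both atirmociclib doses (0.34 and 0.28) and SYVN1 with atirmociclib (0.25 and 0.28) and ribociclib (0.36). The SEL1L differences were of like size in all 5 treatments, 0.27 to 0.34 (SE 0.11, limma adjusted p 0.0179 to 0.0674). For SEL1L 13 of 15 treated libraries lay above every vehicle library. EDEM1, which sends misfolded glycoproteins to degradation, passed with AU2-94 2 µM and both atirmociclib doses at 24 h (0.18 to 0.23) and 72 h (0.21 to 0.39).

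The stress sensors and XBP1 did not move as 1 group. EIF2AK3 (PERK) rose in all 5 treatments at 24 h (0.25 to 0.31) and at 72 h with AU2-94 and atirmociclib 1 µM (0.29 to 0.43). ERN1 (IRE1) was 925, 966 and 991 in vehicle and 1110 to 1866 in treated libraries at 72 h, without overlap, a rise of 0.49 to 0.73. Its AU2-94 1 µM call there was lost without treated replicate 2 (0.32, adjusted p 0.0945). At 24 h ERN1 passed with atirmociclib 1 µM alone (0.52), a call lost without its replicate 1 or vehicle replicate 2 (0.0945 to 0.101), and without vehicle replicate 1 AU2-94 2 µM and ribociclib passed (0.46 and 0.47).

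ATF6 gave −0.17 to −0.01 over the 10 comparisons and passed in none. Its transcripts share near-identical stretches with many other genes, the longest 296 bases at 98.3% identity with ACSL6. The part of these stretches in the ATF6 values was not tested. XBP1, the IRE1 substrate, had counts at 24 h of 2601, 2639 and 2765 in vehicle, 2857, 2637 and 2737 with AU2-94 1 µM, 2663, 2539 and 2676 with AU2-94 2 µM, 2569, 2567 and 2393 with atirmociclib 1 µM, 2553, 2425 and 2680 with atirmociclib 2 µM, and 2654, 2513 and 2903 with ribociclib, with differences of −0.09 to 0.04 that did not pass. All 3 atirmociclib 1 µM libraries lay below vehicle, and the other groups overlapped it. At 72 h its counts were 2527, 2516 and 2139 in vehicle, 2250, 2012 and 2224 with AU2-94 1 µM, 2069, 2254 and 2221 with AU2-94 2 µM, 2201, 2179 and 2003 with atirmociclib 1 µM, 1920, 1949 and 1959 with atirmociclib 2 µM, and 1824, 2204 and 2126 with ribociclib. XBP1 was lower with atirmociclib 2 µM (−0.30) and with ribociclib (−0.22), the latter a call lost without ribociclib replicate 1 or vehicle replicate 1 or 2 (adjusted p 0.12 to 0.175), without the filter (0.0509) and when only the groups compared were fitted (0.101). With equal totals XBP1 also passed as lower with atirmociclib 1 µM (−0.21). Without vehicle replicate 3, the lowest of its group, XBP1 passed as lower with the other 3 treatments as well (adjusted p 0.0167 to 0.0495).

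The translocation genes SSR1 and SEC61B, subunits of the translocon-associated protein complex and of the Sec61 channel, rose at 24 h. SSR1 was 6380, 6473 and 6270 in vehicle and 7213 to 9062 in treated libraries at 24 h, a rise of 0.29 to 0.44. At 72 h it was 6578, 6239 and 6653 against 5556 to 6772, and it was lower with both AU2-94 doses and atirmociclib 1 µM (−0.20 to −0.16). After quantile normalisation the AU2-94 differences no longer passed (−0.08 and −0.10), and with equal totals atirmociclib 2 µM passed as lower (−0.12). SEC61B rose by 0.34 to 0.60 at 24 h, and at 72 h atirmociclib 2 µM alone passed (0.31), a call lost without its replicate 1 or vehicle replicate 1 (adjusted p 0.0711 to 0.0887) and with equal totals (0.0538). SEC31A, a coat protein of vesicles leaving the ER, passed once, lower with AU2-94 1 µM at 72 h (−0.18, limma adjusted p 0.0395). That call was lost after quantile normalisation, with equal totals and without the filter.

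ATF4 mRNA itself was lower in every treatment at both times. Its counts at 24 h were 6349, 6221 and 6371 in vehicle, 5819, 5540 and 5565 with AU2-94 1 µM, 5678, 5604 and 5375 with AU2-94 2 µM, 5600, 5306 and 5243 with atirmociclib 1 µM, 5575, 5286 and 5087 with atirmociclib 2 µM, and 4912, 4907 and 5372 with ribociclib, a difference of −0.32 to −0.16 (SE 0.05, limma adjusted p up to 0.0112). At 72 h they were 7054, 6841 and 6525 in vehicle, 4544, 4522 and 4651 with AU2-94 1 µM, 4103, 4666 and 4410 with AU2-94 2 µM, 4161, 3919 and 4039 with atirmociclib 1 µM, 3467, 3896 and 3675 with atirmociclib 2 µM, and 3849, 3554 and 3717 with ribociclib. The treated libraries did not overlap vehicle at either time, and the 72 h difference was −0.89 to −0.57.

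Over the ATF4 branch at 24 h, 10 of 19 genes fell and 3 rose with AU2-94 1 µM (median −0.20), 10 and 4 with AU2-94 2 µM (−0.22), 12 and 5 with atirmociclib 1 µM (−0.26), 10 and 3 with atirmociclib 2 µM (−0.22), and 12 and 2 with ribociclib (−0.35). With each library scaled to 1 total, AU2-94 2 µM gave 13 lower and 2 higher. At 72 h 16 fell and 3 rose (−0.57), 15 and 1 (−0.63), 15 and 3 (−0.78), 14 and 3 (−0.76) and 16 and 2 (−0.84) in the same order. With the replicate block ribociclib had 1 higher gene at 72 h. In all 5 treatments 9 of 19 genes fell at 24 h, against 7.82% of all genes, and 14 of 19 at 72 h, against 8.59%. The shares of all genes lower in each single treatment, given above, were 13.5% to 16.2% at 24 h and 15.3% to 19.8% at 72 h.

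**Figure D2:**
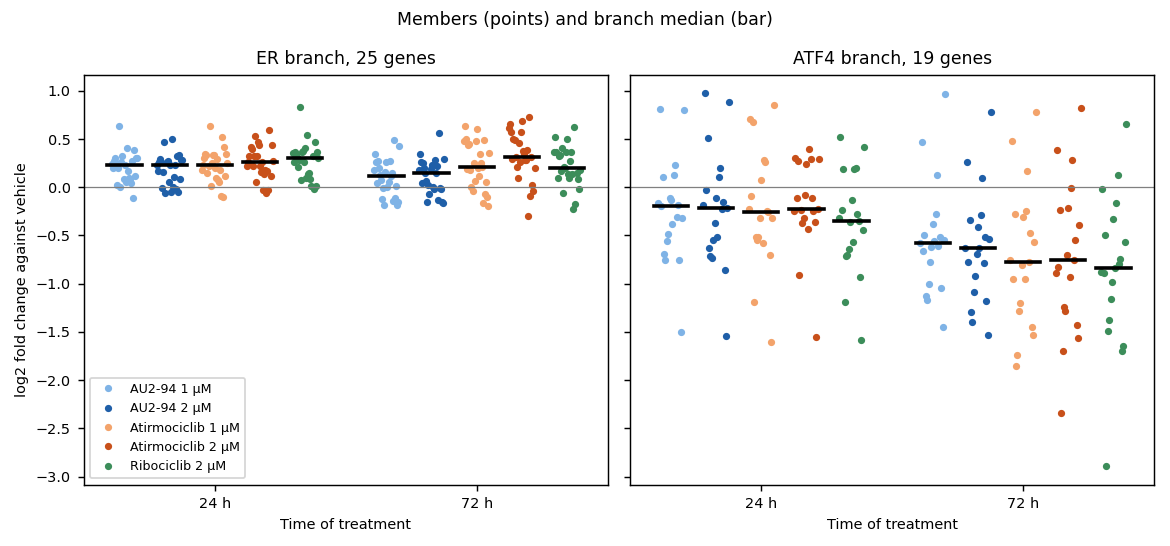
Log2 difference from vehicle (vertical axis) of each gene (points) and the branch median (black bars), by treatment and time, for the ER branch and the ATF4 branch. ER branch medians lie between 0.12 and 0.31, and ATF4 branch medians run from −0.35 to −0.20 at 24 h, while at 72 h they run from −0.84 to −0.57.

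Changes that passed with at least 1 log2 unit were all falls and all in the ATF4 branch. They numbered 1, 1, 2, 1 and 2 genes at 24 h and 5, 5, 6, 6 and 6 at 72 h in the order above, where 4%, 5.03%, 5.72%, 6.08% and 5.05% of all genes did so in either direction at 24 h and 4.38%, 3.86%, 6.74%, 7.54% and 4.49% at 72 h. CHAC1 and SLC7A5 were those at 24 h, joined by ASNS, PSAT1, SLC7A11 and PHGDH at 72 h.

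CHAC1, which degrades glutathione, had the largest fall of the 44 with atirmociclib and ribociclib at 72 h, whereas SLC7A5 fell most in every treatment at 24 h and with AU2-94 at 72 h. CHAC1 counts at 24 h were 310, 306 and 362 in vehicle, 248, 177 and 183 with AU2-94 1 µM, 255, 215 and 168 with AU2-94 2 µM, 145, 124 and 159 with atirmociclib 1 µM, 195, 153 and 173 with atirmociclib 2 µM, and 124, 204 and 111 with ribociclib. At 72 h they were 304, 278 and 285 in vehicle, 124, 133 and 139 with AU2-94 1 µM, 114, 130 and 110 with AU2-94 2 µM, 80.3, 62.9 and 97.9 with atirmociclib 1 µM, 60.5, 55.2 and 52.8 with atirmociclib 2 µM, and 60.4, 19.4 and 46.8 with ribociclib. Every treated library lay below every vehicle library. The difference was −1.19 to −0.63 at 24 h (SE 0.20) and −2.89 to −1.13 at 72 h (SE 0.27). With AU2-94 at 24 h the call was lost without AU2-94 replicate 2 or 3 or without vehicle replicate 3, at either dose (adjusted p 0.0516 to 0.125).

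ASNS makes asparagine from aspartate and glutamine, and its promoter holds a C/EBP-ATF element near the start. At 24 h its counts were 2804, 3431 and 3217 in vehicle, 1762, 1943 and 1884 with AU2-94 1 µM, 1803, 2006 and 1959 with AU2-94 2 µM, 2124, 2165 and 2317 with atirmociclib 1 µM, 2692, 2529 and 2776 with atirmociclib 2 µM, and 2061, 1879 and 1801 with ribociclib. Atirmociclib 2 µM lay closest to vehicle, without overlap. The differences were −0.75, −0.71, −0.51, −0.24 and −0.72 (SE 0.07), and the atirmociclib 2 µM call was lost without its replicate 2 or vehicle replicate 2 or 3 (adjusted p 0.0552 to 0.0968).

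At 72 h ASNS was 2610, 2495 and 2380 in vehicle, 1119, 1237 and 975 with AU2-94 1 µM, 939, 1107 and 816 with AU2-94 2 µM, 792, 752 and 699 with atirmociclib 1 µM, 980, 548 and 845 with atirmociclib 2 µM, and 841, 985 and 836 with ribociclib, with differences of −1.74 to −1.17 (SE 0.16). No treated library reached the lowest vehicle library. A lncRNA on the same strand (ENSG00000284707) covers 49.3% of ASNS exon bases. It had group means of 33.0 to 70.8 normalised counts and passed in no comparison with vehicle.

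The serine pathway was lower as well. PSAT1, the aminotransferase of serine synthesis, was 4752, 4623 and 4426 in vehicle against 2704 to 3683 in treated libraries at 24 h (−0.73 to −0.37) and 4235, 4511 and 4355 against 1646 to 2261 at 72 h (−1.38 to −1.0). PHGDH, the first enzyme of that pathway, gave −0.64 to −0.32 and then −1.28 to −0.77. MTHFD2, a mitochondrial folate enzyme, gave −0.58 to −0.38 and −0.95 to −0.56. PSPH, the last step to serine, passed in 3 treatments at 24 h (−0.37 to −0.31) and in all 5 at 72 h (−0.98 to −0.62). PSPH holds a stretch of 108 bases at 99.1% identity with PSPHP1, and 11.6% of MTHFD2 exon bases overlap SLC4A5 on the other strand.

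SHMT2, PYCR1 and ALDH18A1 moved apart from these enzymes. SHMT2, which passes serine carbon to folate, rose with atirmociclib 2 µM at 24 h (0.24) and fell in all 5 treatments at 72 h (−0.41 to −0.21). At 24 h SHMT2 also passed as lower with ribociclib under the replicate block (−0.13, adjusted p 0.044). The same call passed with median ratio scaling (0.0495) and with genes of a mean of at least 100 alone (0.0432). It passed too without ribociclib replicate 3 (0.0276) or vehicle replicate 1 (0.0403). With AU2-94 and ribociclib SHMT2 passed as lower after quantile normalisation and with equal totals. Its atirmociclib 2 µM call at 72 h was lost without treated replicate 1 or 3 or any vehicle library (0.052 to 0.176). That call was also lost without the filter on low values (0.0627). SHMT2 shares 33 exon bases with NDUFA4L2 on the other strand, whose log2 difference from vehicle was 3.49 to 5.18 over the 10 comparisons.

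PYCR1, which makes proline, rose with atirmociclib and ribociclib at 24 h (0.19 to 0.40) and fell at 72 h with all but atirmociclib 2 µM (−0.29 to −0.17). An opposite-strand lncRNA covers 15.6% and MYADML2 14.1% of its exon bases, both under 3 normalised counts in group means. ALDH18A1, an earlier enzyme of proline synthesis, rose in all 5 treatments at 24 h (0.20 to 0.29) and in 4 at 72 h (0.13 to 0.28). Its AU2-94 1 µM call at 24 h was lost without treated replicate 3 (adjusted p 0.0714). Calls with AU2-94 2 µM and ribociclib at 24 h and with AU2-94 1 µM and ribociclib at 72 h were each lost without any of 2 to 4 single libraries (0.0535 to 0.213), among them vehicle replicate 3 at 24 h and vehicle replicate 1 at 72 h, and the ribociclib call at 72 h also under the replicate block (0.0547). With equal totals the AU2-94 2 µM and ribociclib calls at 24 h and the ribociclib call at 72 h were lost too (0.0542 to 0.0922).

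Of the transporters, SLC7A5 (LAT1, the large neutral amino acid exchanger) was lower by like amounts at both times. At 24 h its counts were 681, 712 and 628 in vehicle, 250, 233 and 229 with AU2-94 1 µM, 241, 238 and 211 with AU2-94 2 µM, 218, 213 and 230 with atirmociclib 1 µM, 233, 209 and 244 with atirmociclib 2 µM, and 221, 213 and 238 with ribociclib, a difference of −1.61 to −1.50 (SE 0.09). At 72 h they were 1015, 1072 and 1148 in vehicle and 327 to 439 in treated libraries (−1.65 to −1.45). An unnamed gene, ENSG00000291073, matches SLC7A5 over 345 bases at 98.6% identity and had group means of 2405 to 2997. It passed in no treatment at 24 h. At 72 h it passed as higher with AU2-94 1 µM (0.24), atirmociclib 1 and 2 µM (0.25 and 0.23) and ribociclib (0.30).

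SLC7A11 (xCT, the cystine importer) was 5282, 5395 and 5834 in vehicle and 2637 to 4667 in treated libraries at 24 h (−0.93 to −0.36), and 4112, 4354 and 4411 against 1205 to 2180 at 72 h (−1.69 to −1.04). SLC3A2, the heavy chain shared by both exchangers, gave −0.45 to −0.22 and −0.57 to −0.39 and passed in all 10. VLDLR, a lipoprotein receptor, went the other way. It was 213, 222 and 213 in vehicle and 176 to 470 in treated libraries at 24 h, passing with AU2-94 and atirmociclib 1 µM (0.80 to 0.88), and 214, 175 and 178 against 237 to 451 at 72 h, where it rose in all 5 treatments (0.66 to 0.97). The AU2-94 1 µM call at 24 h was lost without treated replicate 2 (adjusted p 0.0503) and the ribociclib call at 72 h without treated replicate 3 (0.0644).

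The remaining factors were mixed. TRIB3, a pseudokinase that restrains ATF4, passed in no treatment at 24 h and fell in all 5 at 72 h, from 1396, 1506 and 1491 in vehicle to 730 to 957 (−0.95 to −0.66). With equal totals TRIB3 also passed as lower with ribociclib at 24 h (−0.30). CEBPB and CEBPG, partners of ATF4, passed as lower in 3 treatments each at 24 h and in all 5 at 72 h (−0.80 to −0.61 and −0.75 to −0.47). An antisense lncRNA covers 12.6% of CEBPB exon bases. PPP1R15A (GADD34), which directs phosphatase to eIF2, rose with AU2-94 2 µM (0.51) and atirmociclib 1 µM (0.67) at 24 h and fell with AU2-94 1 µM (−0.49) and ribociclib (−0.49) at 72 h.

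DDIT3, which encodes CHOP, was higher in 3 treatments at each time. Its counts at 24 h were 235, 255 and 243 in vehicle, 414, 455 and 420 with AU2-94 1 µM, 586, 489 and 390 with AU2-94 2 µM, 450, 322 and 443 with atirmociclib 1 µM, 408, 366 and 183 with atirmociclib 2 µM, and 332, 353 and 373 with ribociclib. It rose with both AU2-94 doses (0.81 and 0.98) and atirmociclib 1 µM (0.71, SE 0.22), the last a call lost without its replicate 1 or 3 (adjusted p 0.0627 to 0.0671). With ribociclib the difference of 0.52 did not pass. It passed after quantile normalisation (0.63, adjusted p 0.0287) and when only the groups compared were fitted (0.52, 0.00297).

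Replicate 3 of atirmociclib 2 µM at 24 h lay below every vehicle library for DDIT3 and for VLDLR, where it had 176 against 377 and 282 in the others of its group. With it DDIT3 and VLDLR gave 0.30 and 0.30. Without it DDIT3 rose by 0.66 (adjusted p 0.00313) and VLDLR by 0.59 (0.0189). In that library NDUFA4L2, a hypoxia-inducible gene, was 201 against 2497 and 1869, and its part in these values was not tested.

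At 72 h DDIT3 counts were 237, 225 and 219 in vehicle, 344, 322 and 283 with AU2-94 1 µM, 239, 318 and 265 with AU2-94 2 µM, 340, 272 and 345 with atirmociclib 1 µM, 268, 298 and 327 with atirmociclib 2 µM, and 261, 192 and 225 with ribociclib. It rose with AU2-94 1 µM (0.47), atirmociclib 1 µM (0.48) and atirmociclib 2 µM (0.38), and gave −0.02 with ribociclib. The AU2-94 1 µM call was lost without its replicate 1 (adjusted p 0.0527), and the atirmociclib 2 µM call without its replicate 2 or 3 or vehicle replicate 2 or 3 (0.0627 to 0.114) and with equal totals (0.076). Of DDIT3 exon bases 27.2% overlap MARS1 on the other strand, whose group means were 2346 to 4218 and whose log2 difference was −0.72 to −0.39. Without the strand setting, reads of the pair cannot be told apart in that stretch.

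At matched dose and time the agents were compared in 6 pairs, with p-values adjusted over all genes within each pair. At 24 h the 1 µM doses differed in 2 of the 44 genes, HYOU1 (0.25 higher with atirmociclib) and SHMT2 (0.20), where 1.48% of genes were higher and 3.16% lower. That count was 1 without AU2-94 replicate 1 or atirmociclib replicate 1 or 2, 0 without replicate 3 of either agent, and 0 after quantile normalisation.

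At 2 µM and 24 h atirmociclib was higher than AU2-94 in 14 genes and lower in 1, against 5.12% and 4.31% of all genes. The higher genes included 6 synthesis enzymes, ASNS (0.47, 95% confidence interval 0.32 to 0.62), PSAT1 (0.36), SHMT2 (0.35), PYCR1 (0.29), PSPH (0.29) and PHGDH (0.22), and the cystine importer SLC7A11 (0.49). The other 7 were ER branch genes, HYOU1 (0.38), SEC61B (0.26), PDIA4 (0.23), CRELD2, PDIA6, PDIA3 and CANX, and HERPUD1 was lower (−0.24). The count of 14 was 8 when only those 6 libraries were fitted and 8 without AU2-94 replicate 1. Ribociclib and AU2-94 at 2 µM differed in 0 of the 44 by limma at 24 h. Over all genes 0.0186% were higher and 0.0186% lower at the adjusted p. At an unadjusted limma p under 0.05, 10 of the 44 were higher and 6 lower. The share of all genes at that unadjusted threshold was not computed, so nothing is read from those counts.

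At 72 h atirmociclib and AU2-94 differed in both branches. At 1 µM 10 genes were higher and 7 lower with atirmociclib, against 4.53% and 3.7% of all genes, and at 2 µM 17 and 5, against 11.1% and 8.73%. With equal totals the latter were 12 and 7. All 10 higher genes at 1 µM and 15 of 17 at 2 µM were in the ER branch. HSPA5 was higher by 0.31 (0.24 to 0.38) and 0.44 (0.37 to 0.51), MANF by 0.35 and 0.46, HYOU1 by 0.32 and 0.38, DNAJC3 by 0.26 and 0.44, and HSP90B1 by 0.30 and 0.32. The proline genes PYCR1 (0.28) and ALDH18A1 (0.18) were the other 2 at 2 µM.

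The genes lower with atirmociclib at 72 h were all in the ATF4 branch. PHGDH differed by −0.43 (−0.58 to −0.28) at 1 µM and −0.36 (−0.51 to −0.21) at 2 µM, MTHFD2 by −0.39 and −0.30, SLC7A11 by −0.41 and −0.25, and ATF4 by −0.18 and −0.26. ASNS (−0.57), PSAT1 (−0.28) and TRIB3 (−0.29) passed at 1 µM, and CHAC1 (−1.05) at 2 µM. At 2 µM the ASNS difference was −0.30 with an interval of −0.63 to 0.03. PHGDH and SLC7A11 were therefore higher with atirmociclib than with AU2-94 at 2 µM at 24 h and lower at 72 h. The mitochondrial share of normalised counts was 8.33% to 8.66% with atirmociclib 2 µM and 7.01% to 7.43% with AU2-94 2 µM at 72 h, and its part in these differences was not tested.

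Ribociclib against AU2-94 at 2 µM and 72 h gave 8 higher genes, among them HSPA5 (0.19), MANF (0.26) and HSP90B1 (0.18), and 4 lower, CHAC1 (−1.60), SLC7A11 (−0.51), PSAT1 (−0.30) and ATF4 (−0.24), against 1.96% and 1.38% of all genes. The higher count varied with the processing. It was 4 with the replicate block, 2 with equal totals (with 6 lower), 2 without the filter, 0 after quantile normalisation (with 5 lower), 0 when only those 6 libraries were fitted (with 0 lower), and 1 to 5 when any 1 library was left out.

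The change of each effect between the time points was tested over all 36 libraries (16850 genes). In the ATF4 branch 0 genes changed upwards in any treatment and 7, 10, 12, 13 and 13 downwards, in the order AU2-94 1 and 2 µM, atirmociclib 1 and 2 µM and ribociclib. In the ER branch 1, 2, 5, 6 and 1 changed upwards and 7, 6, 4, 1 and 3 downwards. Over all genes 10.1%, 9.26%, 11.3%, 11.7% and 10.5% changed upwards and 11.5%, 9.28%, 10.6%, 9.96% and 9.66% downwards. For all 44 together the upward counts with AU2-94 1 µM, AU2-94 2 µM and ribociclib were 1, 2 and 1, against 14, 16 and 16 downward, and 5, 5 and 6 against 14, 15 and 14 after quantile normalisation. With equal totals ribociclib gave 3 and 14.

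In the ATF4 branch the ASNS effect changed by −0.69 with AU2-94 2 µM, −1.23 and −1.46 with atirmociclib 1 and 2 µM and −0.78 with ribociclib (SE 0.18), and the CHAC1 effect by −1.44 with atirmociclib 2 µM and −1.69 with ribociclib. The genes that changed downwards in all 5 treatments were TRIB3, PSAT1, PHGDH, ATF4, PYCR1 (−0.53 to −0.35) and the ER gene SSR1, 6 of 44, where 4.33% of all genes did so and 4.55% changed upwards in all 5, as none of the 44 did. SLC7A5 passed in none (−0.06 to 0.07, SE 0.13). In the ER branch HSP90B1 changed upwards in 4 treatments, all but AU2-94 1 µM (0.17 to 0.40), and PDIA4 in 4, all but ribociclib (0.18 to 0.31). CRELD2 changed upwards with atirmociclib 2 µM alone (0.22). The HSPA5 effect passed as changed upwards with atirmociclib (0.31 and 0.40), as did those of MANF (0.41 and 0.47) and CALR (0.20 and 0.24), and that of HERPUD1 downwards with AU2-94 (−0.36 and −0.52) and ribociclib (−0.44). Whether these changes differed between agents was not tested.

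In vehicle, 2 of the 44 were higher and 3 lower at 72 h than at 24 h, where 3.85% and 3.64% of all genes were. PPP1R15A (0.63) and SLC7A5 (0.68) were higher, and CRELD2 (−0.19), EIF2AK3 (−0.34) and SLC7A11 (−0.36) lower. The counts were 2 higher and 5 lower with equal totals and 2 and 6 after quantile normalisation. The SLC7A5 vehicle mean was 1078 ± 67.0 at 72 h and 674 ± 42.7 at 24 h (SD, n = 3).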

How the data were processed

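Total RNA of LNCaP cells (36 libraries, 12 groups of 3) was sequenced paired-end by the authors on a DNBSEQ instrument and aligned with STAR 2.6.1d to GRCh38, and the authors tested expression with DESeq2, per the labels and the study's methods. The deposited signal holds normalised counts of 29872 genes in 36 libraries. The counter, annotation release, strand setting and method of normalisation are not given in the sources used here. Only 2.67% of values above 0 lay within 0.01 of a whole number and the distinct values below 5 numbered 3567 to 4654 per library, so whole reads could not be recovered and no count test was run. Depth per library is therefore unknown.

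Groups came from the labels. Values were set to log2(normalised count + 1) and genes kept at 10 or more in at least 3 libraries. limma 3.58.1 (R 4.3.3; lmFit, then eBayes with trend) was fitted over the 6 groups of a time point, and over all 36 libraries for changes between times, with Benjamini-Hochberg adjustment over all genes. The scripts were tested on simulated data with changes planted among all genes kept. Against vehicle, 48% of changes of 0.5 log2 units were recovered at 24 h and 43% at 72 h. For 1 log2 unit the shares were 66% and 71%. For the change between times they were 33% at 0.5 and 66% at 1 log2 unit. A gene that did not pass may therefore still have changed. Near-identical stretches of at least 100 bases and 98% identity were sought with BLAST 2.17.0 among GENCODE v44 transcripts.

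The 44 genes and all lists were chosen with earlier results of these data known. Given with values of every library or by group were HSPA5, ASNS, ATF4, DDIT3 and XBP1, up to 5 genes per branch, time and direction that passed in all 5 treatments, up to 5 that passed between atirmociclib and AU2-94 at both doses, and up to 5 that changed over time in all 5, each by absolute mean. Others are given by range, or were named after their values were seen. From each wider list up to 3 genes per time and direction were named by the same rule.

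Replicate numbers are a batch in the labels and so pair the libraries, and the main fits left this pairing out. Deviations of same-numbered libraries correlated by only -0.09 to 0.11 at 24 h and -0.08 to 0.05 at 72 h over 45 pairs each. Those of differently numbered libraries correlated by -0.11 to 0.10 and -0.07 to 0.07 over 90 pairs each. Alternatives were a replicate block, a pseudocount of 8, no filter or a mean of at least 100, quantile, equal-total and median ratio scaling, fits of only the groups compared, and leaving out each library.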

Additional observations from a re-analysis of the deposited data

Results flagged for a closer look

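Each of the following genes had a difference from vehicle that changed between 24 h and 72 h, by a test of the change itself (limma over 36 libraries, adjusted p at most 0.0377). Values are the log2 difference at 72 h minus that at 24 h, in the order AU2-94 1 and 2 µM, atirmociclib 1 and 2 µM and ribociclib, and time and seeding density cannot be told apart. The changes were −0.46, −0.74, −0.86, −0.72 and −0.65 for TRIB3, −0.44, −0.35, −0.73, −0.87 and −0.68 for PSAT1, −0.29, −0.38, −0.69, −0.96 and −0.52 for PHGDH, −0.41, −0.45, −0.52, −0.64 and −0.56 for ATF4 and −0.46, −0.46, −0.54, −0.48 and −0.38 for SSR1. SHMT2 with atirmociclib 2 µM changed by −0.45, from higher than vehicle to lower. PYCR1 changed by −0.40, −0.40, −0.53, −0.40 and −0.35, from higher than vehicle to lower with atirmociclib 1 µM and ribociclib. ASNS changed by −0.69, −1.23, −1.46 and −0.78 in all but AU2-94 1 µM, and CHAC1 by −1.44 and −1.69 with atirmociclib 2 µM and ribociclib. With atirmociclib 1 and 2 µM the changes were 0.31 and 0.40 for HSPA5, 0.41 and 0.47 for MANF and 0.20 and 0.24 for CALR, and CRELD2 changed by 0.22 with atirmociclib 2 µM. HSP90B1 changed by 0.17, 0.40, 0.40 and 0.26 in all but AU2-94 1 µM, PDIA4 by 0.18, 0.21, 0.31 and 0.27 in all but ribociclib, and HERPUD1 by −0.36, −0.52 and −0.44 with AU2-94 1 and 2 µM and ribociclib. With 3 libraries in each group, no group was tested for a single library that stood apart.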

How the results depend on the processing

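Of 250 differences from vehicle of the 25 named genes, 233 kept direction and side of the threshold after quantile normalisation, 235 with equal totals, 244 when only the groups compared were fitted, 247 without the filter, 248 with the replicate block, 249 with median ratio scaling, 249 with the higher filter and 250 with a pseudocount of 8, as did 1430 of 1500 with 1 library left out. The 2 reversed were HSPA5 at 24 h with atirmociclib 1 µM (−0.027) and 2 µM (−0.0055) after quantile normalisation. Genes were named largely because they passed in all 5 treatments or between agents at both doses. These shares therefore do not describe the other genes of the 44, which include calls nearer the threshold. A pseudocount of 8 moved no count by over 1.5 times and no branch median beyond the SD. The causes of the changes below were not tested. Depth is not known from normalised values, so counting error could not be given. Equal totals moved the median of all genes by −0.10 to 0.07 on the log2 scale, so changes under it are read against that shift. With each library scaled to equal totals, higher genes of the ATF4 branch at 24 h numbered 2 (AU2-94 2 µM) and 1 (ribociclib) and lower genes of the ER branch at 24 h numbered 1 (atirmociclib 1 µM). The ER branch median at 24 h was 0.18 (atirmociclib 1 µM), 0.18 (atirmociclib 2 µM) and 0.24 (ribociclib) and the ATF4 branch median at 24 h was −0.31 (atirmociclib 1 µM) and −0.41 (ribociclib). Lower genes between agents at 24 h numbered 2 (atirmociclib against AU2-94 2 µM) and lower genes of the ER branch at 72 h numbered 1 (AU2-94 1 µM), 1 (AU2-94 2 µM), 2 (atirmociclib 1 µM) and 2 (atirmociclib 2 µM). The ER branch median at 72 h was 0.15 (AU2-94 1 µM), 0.17 (AU2-94 2 µM), 0.17 (atirmociclib 1 µM) and 0.24 (atirmociclib 2 µM) and the ATF4 branch median at 72 h was −0.54 (AU2-94 1 µM), −0.82 (atirmociclib 1 µM) and −0.83 (atirmociclib 2 µM). Higher genes of the ATF4 branch at 72 h numbered 2 (AU2-94 2 µM) and 1 (ribociclib) and higher genes between agents at 72 h numbered 2 (ribociclib against AU2-94 2 µM). Upward changes over time numbered 2 (AU2-94 1 µM) and 3 (ribociclib) and genes lower at 72 h in vehicle numbered 5. After quantile normalisation, the ER branch median at 24 h was 0.15 (AU2-94 1 µM), 0.13 (AU2-94 2 µM), 0.18 (atirmociclib 1 µM), 0.17 (atirmociclib 2 µM) and 0.15 (ribociclib) and higher genes between agents at 24 h numbered 0 (atirmociclib against AU2-94 1 µM). Lower genes of the ER branch at 72 h numbered 0 (AU2-94 1 µM) and 0 (AU2-94 2 µM) and the ER branch median at 72 h was 0.18 (AU2-94 1 µM), 0.19 (AU2-94 2 µM) and 0.25 (atirmociclib 1 µM). Higher genes of the ATF4 branch at 72 h numbered 2 (AU2-94 2 µM) and the ATF4 branch median at 72 h was −0.74 (atirmociclib 1 µM) and −0.67 (atirmociclib 2 µM). Higher genes between agents at 72 h numbered 0 (ribociclib against AU2-94 2 µM) and upward changes over time numbered 5 (AU2-94 1 µM), 5 (AU2-94 2 µM) and 6 (ribociclib). Genes lower at 72 h in vehicle numbered 6. With median ratio scaling, higher genes between agents at 24 h numbered 1 (ribociclib against AU2-94 2 µM) and the ER branch median at 72 h was 0.12 (AU2-94 1 µM). Lower genes of the ER branch at 72 h numbered 1 (AU2-94 2 µM). Without the filter, higher genes between agents at 24 h numbered 1 (atirmociclib against AU2-94 1 µM) and lower genes of the ER branch at 72 h numbered 1 (AU2-94 1 µM), 1 (AU2-94 2 µM) and 0 (ribociclib). Higher genes of the ATF4 branch at 72 h numbered 1 (ribociclib) and higher genes between agents at 72 h numbered 2 (ribociclib against AU2-94 2 µM). Upward changes over time numbered 1 (AU2-94 2 µM). With genes of a mean of at least 100 alone, higher genes between agents at 24 h numbered 4 (atirmociclib against AU2-94 1 µM) and 1 (ribociclib against AU2-94 2 µM) and lower genes between agents at 24 h numbered 2 (atirmociclib against AU2-94 2 µM). Upward changes over time numbered 2 (AU2-94 1 µM). When only the groups compared were fitted, higher genes between agents at 24 h numbered 1 (atirmociclib against AU2-94 1 µM) and 8 (atirmociclib against AU2-94 2 µM) and lower genes of the ER branch at 72 h numbered 1 (AU2-94 2 µM) and 0 (ribociclib). Higher genes of the ATF4 branch at 72 h numbered 1 (ribociclib) and higher genes between agents at 72 h numbered 0 (ribociclib against AU2-94 2 µM). Lower genes between agents at 72 h numbered 0 (ribociclib against AU2-94 2 µM) and genes higher at 72 h in vehicle numbered 1. With the replicate number as a block, lower genes of the ER branch at 72 h numbered 1 (AU2-94 2 µM) and higher genes of the ATF4 branch at 72 h numbered 1 (ribociclib). Higher genes between agents at 72 h numbered 4 (ribociclib against AU2-94 2 µM). With 1 library left out, the ATF4 branch median at 24 h was −0.28 to −0.18 (AU2-94 1 µM) and −0.26 to −0.16 (AU2-94 2 µM) and higher genes of the ATF4 branch at 24 h numbered 2 to 4 (AU2-94 2 µM), 3 to 5 (atirmociclib 2 µM) and 1 to 2 (ribociclib). The ER branch median at 24 h was 0.21 to 0.28 (atirmociclib 2 µM) and higher genes between agents at 24 h numbered 0 to 2 (atirmociclib against AU2-94 1 µM), 8 to 14 (atirmociclib against AU2-94 2 µM) and 0 to 1 (ribociclib against AU2-94 2 µM). Lower genes between agents at 24 h numbered 0 to 2 (atirmociclib against AU2-94 2 µM) and lower genes of the ER branch at 72 h numbered 1 to 2 (AU2-94 1 µM), 1 to 2 (AU2-94 2 µM), 1 to 2 (atirmociclib 1 µM) and 0 to 1 (ribociclib). The ER branch median at 72 h was 0.094 to 0.15 (AU2-94 1 µM), 0.13 to 0.17 (AU2-94 2 µM), 0.21 to 0.24 (atirmociclib 1 µM) and 0.31 to 0.36 (atirmociclib 2 µM) and higher genes of the ATF4 branch at 72 h numbered 1 to 3 (AU2-94 1 µM), 1 to 2 (AU2-94 2 µM) and 0 to 2 (ribociclib). The ATF4 branch median at 72 h was −0.60 to −0.57 (AU2-94 1 µM), −0.68 to −0.63 (AU2-94 2 µM), −0.83 to −0.75 (atirmociclib 1 µM), −0.81 to −0.71 (atirmociclib 2 µM) and −0.85 to −0.81 (ribociclib) and higher genes between agents at 72 h numbered 1 to 5 (ribociclib against AU2-94 2 µM). Lower genes between agents at 72 h numbered 2 to 4 (ribociclib against AU2-94 2 µM) and upward changes over time numbered 1 to 2 (AU2-94 1 µM), 1 to 2 (AU2-94 2 µM) and 1 to 3 (ribociclib). Genes higher at 72 h in vehicle numbered 1 to 3 and genes lower at 72 h in vehicle numbered 1 to 3. Among larger counts, the ATF4 branch had 2 higher with AU2-94 2 µM at 24 h without its replicate 3, 5 with atirmociclib 2 µM at 24 h without its replicate 3, 1 with AU2-94 1 µM at 72 h without its replicate 1 and 0 with ribociclib at 72 h without its replicate 3. The block changed no other count by over 1.5 times, and among the named genes it changed 2 calls, those of SHMT2 and ALDH18A1 with ribociclib.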

Other observations

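Wider lists held 75 other genes of the ER (74 tested), 43 other genes linked to ATF4 (41 tested) and 16 eIF2 kinases and regulators, with the counts of higher and lower genes below in the order AU2-94 1 and 2 µM, atirmociclib 1 and 2 µM and ribociclib. Over all genes tested 14.3% to 18.6% were higher and 13.5% to 16.2% lower in these treatments at 24 h, and 14.2% to 20.9% and 15.3% to 19.8% at 72 h. In the wider ER list 23 and 5, 23 and 5, 29 and 5, 38 and 5 and 31 and 5 genes were higher and lower at 24 h, and 7 and 19, 5 and 18, 13 and 16, 21 and 9 and 11 and 11 at 72 h, or 31.1% to 51.4% higher and 6.76% lower at 24 h, and 6.76% to 28.4% and 12.2% to 25.7% at 72 h. At 24 h the translocation gene SEC61G (0.51 to 0.58), the ERAD ubiquitin-conjugating enzyme UBE2J1 (0.43 to 0.62) and the signal peptidase subunit SEC11C (0.43 to 0.56) rose in all 5 treatments, and the ERAD genes UFD1 (−0.38 to −0.25) and AUP1 (−0.36 to −0.21) fell. At 72 h SIL1, an exchange factor for BiP (0.23 to 0.46), WFS1 (0.20 to 0.44) and EDEM3 (0.22 to 0.32) rose, and the thioredoxin-like TMX1 (−0.62 to −0.30), HSPA13 (−0.32 to −0.22) and the signal peptidase subunit SPCS1 (−0.30 to −0.22) fell.

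In the wider ATF4 list 3 and 20, 5 and 22, 4 and 20, 6 and 17 and 2 and 25 genes were higher and lower at 24 h, and 4 and 24, 3 and 28, 7 and 29, 6 and 27 and 5 and 27 at 72 h, or 4.88% to 14.6% higher and 41.5% to 61% lower at 24 h, and 7.32% to 17.1% and 58.5% to 70.7% at 72 h. The neutral amino acid transporters SLC1A4 (−1.58 to −1.12 at 24 h, −2.16 to −0.97 at 72 h) and SLC1A5 (−0.87 to −0.73, −1.63 to −1.10) fell in all 5 treatments at both times, as did SLC38A1 at 24 h (−0.71 to −0.55) and PCK2, a mitochondrial phosphoenolpyruvate enzyme, at 72 h (−1.58 to −0.90). TRIB1 (0.35 to 0.58) and NUPR1 (0.20 to 0.44) rose at 24 h, and the stress cytokine GDF15 (0.93 to 1.65), KLHL24 (0.66 to 0.99) and DDIT4, an mTORC1 inhibitor (0.36 to 0.60), at 72 h. Of the 16 genes of the eIF2 list, the shares were 6.25% to 31.2% higher and 0% to 18.8% lower at 24 h, and 0% to 12.5% and 18.8% to 31.2% at 72 h, and beside the shares of all genes no pattern is read from so few. By count, 2 and 2, 1 and 3, 5 and 1, 3 and 0 and 4 and 3 were higher and lower at 24 h and 0 and 5, 0 and 5, 2 and 3, 1 and 3 and 2 and 3 at 72 h. In all 5 treatments OMA1, a mitochondrial stress protease, was higher at 24 h (0.41 to 0.48) and EIF2S2 (−0.39 to −0.33) and PPP1R15B (−0.40 to −0.21) were lower at 72 h.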
